A study of Homo sapiens with 6 samples.

Results

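The genes described here are 10 receptors through which lymphocytes sense chemoattractants: GPR15, CCR7, CCR6, CCR10, CXCR3, CXCR4, CXCR5, GPR183, S1PR1 and S1PR2. They were picked out of 18604 genes on the arrays by symbol, as the row whose annotation named that gene alone. Where several rows did, the row with the highest mean over the 6 arrays was taken. The deposited annotation carried 6 of them under these symbols and 4 under older ones, BLR1 for CXCR5, EBI2 for GPR183, EDG1 for S1PR1 and EDG5 for S1PR2, which were matched through their Entrez identifiers. GPR15 was included because it was higher at 8 h than at 1 h on these same arrays, so its change with time is described and not tested. The other 9 are receptors of the same kind.

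The cells were L1236, a line established from Hodgkin lymphoma. They were given leukotriene D4 (LTD4) at 100 nM, its vehicle methanol at 0.1%, or no treatment, for 8 h or 1 h. Cells given LTD4 or methanol were suspended in serum-free medium, and the labels do not say whether the untreated cells were. Each of the 6 combinations was 1 array, so no group had a replicate, and all values come from a single line.

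Chemoattractant receptors are seven-helix membrane proteins that couple mostly to inhibitory G proteins and steer cells along gradients of chemokines or lipids. In B-lineage cells they set where a cell sits in lymphoid tissue: CXCR5 draws it to follicles, CCR7 to the T-cell zone, GPR183 to the follicle's outer edge, and CXCR4 to bone marrow and the germinal centre dark zone. S1PR1 lets lymphocytes leave tissue, S1PR2 holds germinal centre B cells in place, and CCR10 and GPR15 direct lymphocytes to skin and mucosa. Hodgkin cells are B-lineage cells that have lost much of the B-cell programme.

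Promoter windows from RefSeq (GRCh38.p14), 250 bases before to 50 after an annotated start, were matched for 8 of the 10 genes, and CCR7 and CCR10 had none in the table used. They are shown for GPR15, whose level differed most with time among the receptors above the background limit, for GPR183, which differed the other way, and for CXCR4, which differed little and whose first of 3 windows is given. GPR15 is at chr3:98531728-98532027 on the plus strand, GPR183 at chr13:99307350-99307649 and CXCR4 at chr2:136118100-136118399, both on the minus strand. Each is written 5′ to 3′ on the gene's own strand, and the capitals mark every TATAAA on either strand.
GPR15: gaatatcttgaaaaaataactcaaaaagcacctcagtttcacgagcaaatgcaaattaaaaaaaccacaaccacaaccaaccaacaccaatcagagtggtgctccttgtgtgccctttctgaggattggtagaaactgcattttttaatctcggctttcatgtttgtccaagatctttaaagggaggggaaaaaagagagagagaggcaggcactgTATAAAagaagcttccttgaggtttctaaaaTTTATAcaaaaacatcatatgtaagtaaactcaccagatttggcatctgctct
GPR183: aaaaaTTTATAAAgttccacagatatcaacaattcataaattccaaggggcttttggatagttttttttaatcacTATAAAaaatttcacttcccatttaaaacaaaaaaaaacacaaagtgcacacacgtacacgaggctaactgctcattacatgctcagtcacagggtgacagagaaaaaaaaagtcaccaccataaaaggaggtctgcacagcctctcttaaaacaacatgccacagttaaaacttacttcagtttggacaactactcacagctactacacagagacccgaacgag
CXCR4: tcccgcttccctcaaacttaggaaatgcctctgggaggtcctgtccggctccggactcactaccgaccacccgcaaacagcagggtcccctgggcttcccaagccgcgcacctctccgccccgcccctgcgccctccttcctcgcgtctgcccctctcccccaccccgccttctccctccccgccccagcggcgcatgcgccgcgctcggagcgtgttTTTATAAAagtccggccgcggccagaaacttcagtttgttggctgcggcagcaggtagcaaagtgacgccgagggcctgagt

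These 4 short motifs were looked for on both strands: TATAAA (the TATA box), TGTGGT (the core of RUNX sites), GCGTG (the core of sites of the aryl hydrocarbon receptor AHR) and GGGCGG (the GC box). Of 35116 windows of the same length, 11.5%, 13.1%, 36.5% and 45.0% held them, in that order. The GPR15 window was 38.0% G and C and held TATAAA at -34 from the start, and on the opposite strand at -3. It also held TGTGGT on the opposite strand at -187 and -181. It held no GCGTG and no GGGCGG. The GPR183 window was 36.7% G and C, and its TATAAA matches lay at -245, -243 and -175, the first pair overlapping on opposite strands. The CXCR4 window was 66.7% G and C, with overlapping TATAAA matches on opposite strands at -32 and -30, GGGCGG at -135, -130 and -70, and GCGTG at -39. These are matches of letters, and no binding was measured here.

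Facts of the arrays as a whole bear on every value below. Values are deposited gene-level intensities on a linear scale. The median of all probesets was 210 with LTD4, 223 with methanol and 154 untreated at 8 h, and 217, 228 and 188 in the same order at 1 h, so the untreated arrays were the dimmest at both times. Differences are given on the scale of log2(intensity + 16), which understates changes of dim genes. A background limit was set at an intensity of 1263, the 95th percentile of 45 antigenomic control probesets that match no human sequence, and 3584 genes reached it on at least 1 array. Of 9 Hodgkin cell markers 5 reached the limit, among them IRF4 at 4196 to 4991 and the chemokine CCL17 at 1265 to 1523. TNFRSF8, which encodes CD30, the defining surface marker of Hodgkin cells, stayed below it at 496 to 872. Of 8 B-cell programme genes PAX5 alone reached it, and MS4A1, which encodes CD20, was at 36.7 to 63.8. Of 23 markers of T cells, monocytes and macrophages, NK cells and granulocytes, 0 reached it and none was listed at 0. Since no label speaks of separate cultures, a p-value here covers the scatter of the arrays alone, and that scatter may be technical.

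Of the 10 receptors, 4 reached the background limit and were tested: CCR7 and CXCR4 on all 6 arrays, GPR15 on the 3 arrays of 8 h, and CCR10 on the methanol array of 1 h alone. CCR10 was just inside the limit with a highest value of 1272, and GPR183 was just outside it with 1188. The other 6 stayed below it throughout, which leaves their differences open to background. Since the limit looks at the highest array, GPR15 and CCR10 passed through the arrays on which they were high. The plot of intensities by array shows all 60 values.

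**Figure D1:**
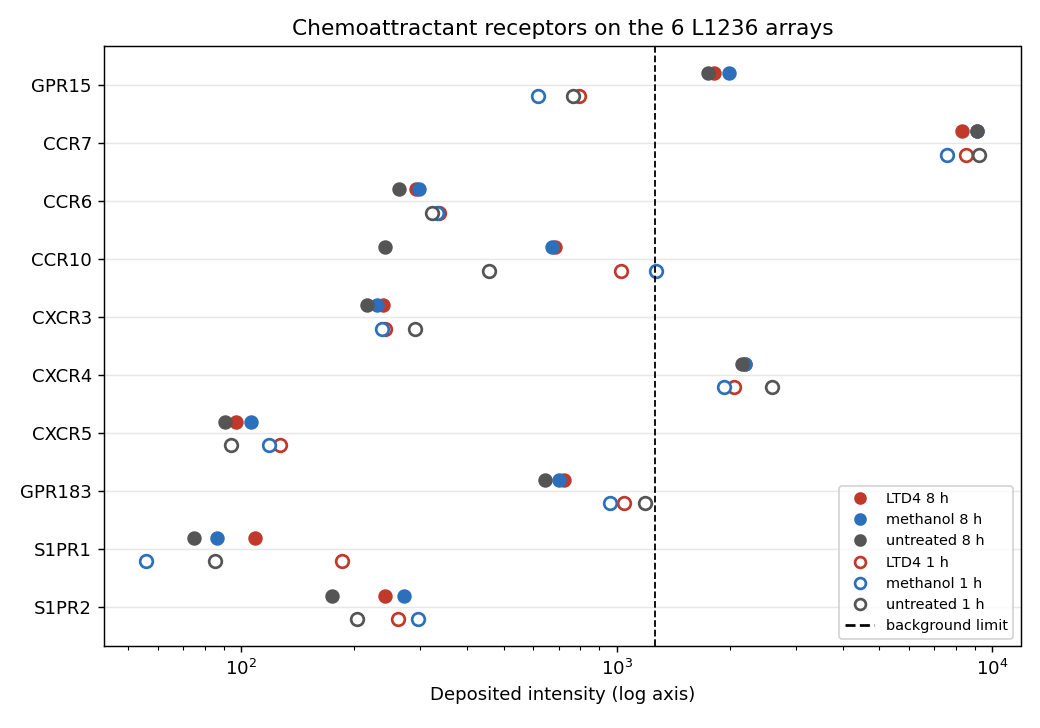
Deposited intensity (log axis) of the 10 receptors, 1 point per array; filled points are 8 h and open points 1 h, coloured by agent, and the dashed line is the background limit of 1263. CCR7 is at 7595 or higher on every array, GPR15 is above the line at 8 h alone, and CCR10 is lowest on both untreated arrays.

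GPR15, a receptor for the peptide GPR15LG that guides T cells to the large intestine and skin and also serves as a coreceptor for immunodeficiency viruses, was the receptor chosen for its difference with time. Its intensity at 8 h was 1816 with LTD4, 1997 with methanol and 1755 untreated, against 793, 619 and 763 at 1 h in the same order. All 3 arrays of 8 h lay above all 3 of 1 h, and the groups did not overlap. The difference between 8 h and 1 h was 1.18 with LTD4, 1.66 with methanol and 1.18 untreated, with a fitted value of 1.34, a 2.54-fold higher level. Across the 3584 genes, 0.949% passed the test in that direction, 19.2% were higher in all 3 agents, and 0.0558%, 2 genes, were at least 2-fold higher in all 3 agents. These background shares are given for scale only, since the gene was chosen by this contrast.

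Within each time GPR15 differed less between agents. LTD4 minus methanol was -0.14 at 8 h and 0.35 at 1 h, and methanol minus untreated was 0.18 and -0.30. In a limma fit over all tested genes, with agent and time as additive terms, LTD4 minus methanol was 0.11, with a 95% interval of -0.33 to 0.54 (adjusted p = 0.9999), positive at 1 of 2 times. Methanol minus untreated was -0.06, with an interval of -0.49 to 0.38 (adjusted p = 0.966). GPR15LG, the ligand, was dim at 86.4 to 122 on the 6 arrays. A further row annotated to GPR15 alone lies 124387 bases from the row used, in the coordinates of the file, of unnamed build. It spans 99859071 to 99863151 on chromosome 3, while the row used spans 99733542 to 99734684. Its intensity was 90.9 to 114 on the 6 arrays, and its 2 times overlapped.

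**Figure D2:**
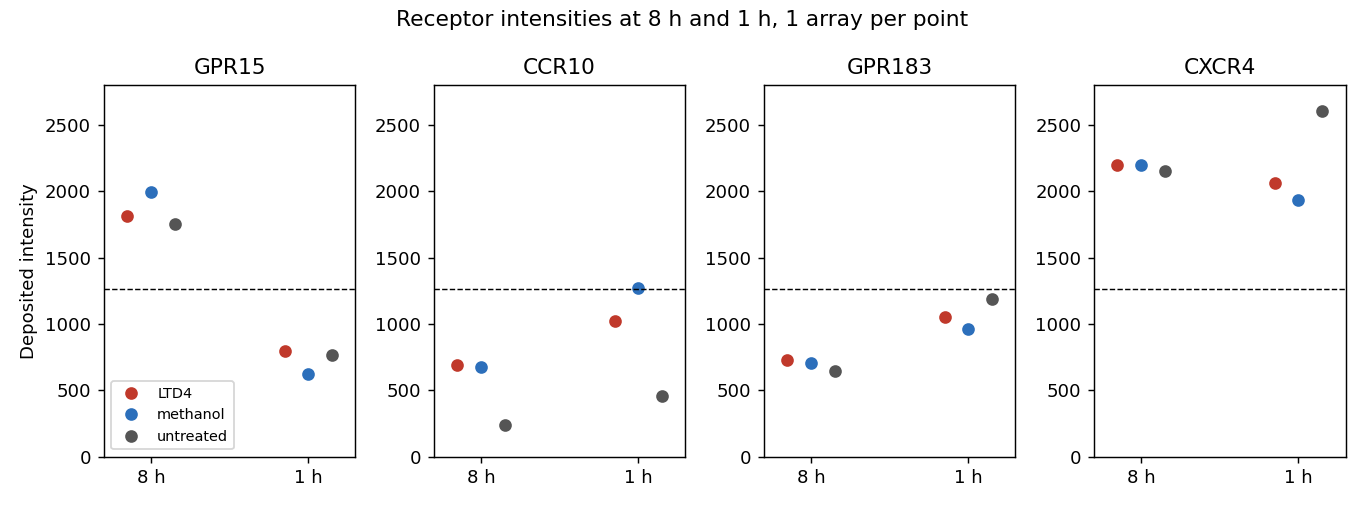
Deposited intensity of GPR15, CCR10, GPR183 and CXCR4 at 8 h and 1 h, 1 point per array, coloured by agent; the dashed line is the background limit of 1263. GPR15 is higher at 8 h in all 3 agents, CCR10 and GPR183 are lower at 8 h in all 3, and CXCR4 shows no common direction.

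The 5 genes whose pattern was most like that of GPR15 were taken by Pearson correlation over the 6 arrays, among 208 other tested genes that spanned at least 1 log2 unit. They were CCDC86 at 0.97, SLC43A3 at 0.96, PEG10 at 0.95, the chemokine CXCL10 at 0.93 and the small nucleolar RNA SNORA71C at 0.91. The points share their arrays and fall into 8 h and 1 h, so these values mostly describe a common difference between the times. CCDC86 had 1098, 1288 and 1144 at 8 h with LTD4, methanol and untreated, against 716, 583 and 797 at 1 h. As with GPR15, the methanol array was its highest at 8 h and its lowest at 1 h, an order that selection by correlation favours. The medians of all tested genes ran the same way. Methanol minus untreated was 0.27 at 8 h and -0.21 at 1 h, and LTD4 minus methanol was -0.10 and 0.11.

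CCR10 binds CCL27 and CCL28, chemokines of skin and mucosal epithelium, and is known from plasma cells and skin-homing T cells. At 8 h its intensity was 687 with LTD4 and 674 with methanol, against 241 in untreated cells. At 1 h it was 1025 with LTD4 and 1272 with methanol, against 458 in untreated cells. Both arrays with methanol or LTD4 lay above the untreated array at each time.

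Methanol minus untreated was 1.42 at 8 h and 1.44 at 1 h. CCR10 rose by 1.43 (SE 0.22, 95% interval 1.00 to 1.87) with methanol in the limma fit over both times (adjusted p = 2.75e-08), higher at 2 of 2 times. The other 3 tested receptors were not called, where 2.26% of all tested genes were called in either direction and 1.9% higher. CCR10 was among the tested genes only through its methanol array of 1 h, on the high side of this contrast, so its place in that count supports nothing. With all 18604 genes fitted, which needs no such limit, the adjusted p was 2.3e-08 (limma), where 8.76% of genes were called higher. It was also the 1 receptor at least 2-fold higher at both times, which held for 0.474% of tested genes (2.15% at 8 h and 0.586% at 1 h taken singly). At 8 h it was no longer past 2-fold after quantile normalization or after centring arrays on the median of all genes. CCR10 with LTD4 stood 1.45 above untreated at 8 h and 1.13 at 1 h, and 0.251% of tested genes were 2-fold above untreated with both agents at both times. Both agents were set against 1 untreated array per time, which these values share. The 2-fold shares are over tested genes, which CCR10 joined through its high methanol array, so they are for scale only. The same shares over all 18604 genes are not given here.

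Several measured facts stand beside the CCR10 difference. When the variance was allowed to follow the mean intensity (eBayes with a trend), its standard error was 0.48 in place of 0.22 and the call was lost (adjusted p = 0.147). Over the other alternatives with all 6 arrays its adjusted p (limma) was at most 0.0021. Without 1 array its difference was 1.34 to 1.52, in fits that kept CCR10 even without the array that admitted it. Dim probesets as a whole were lower on the untreated arrays: the first quartile of all probesets was 76.2 with methanol against 53.7 untreated at 8 h, and 89.1 against 66.5 at 1 h. The summed intensity of the 23 markers of other cell types was also higher, at 3500 with methanol against 2313 untreated at 8 h, and 4315 against 3209 at 1 h. The part of this shift in the CCR10 difference was not tested beyond rescaling. After quantile normalization CCR10 rose by 1.25 (adjusted p = 0.0021, limma). CCL28 was at 39.0 to 69.0 on the 6 arrays.

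**Figure D3:**
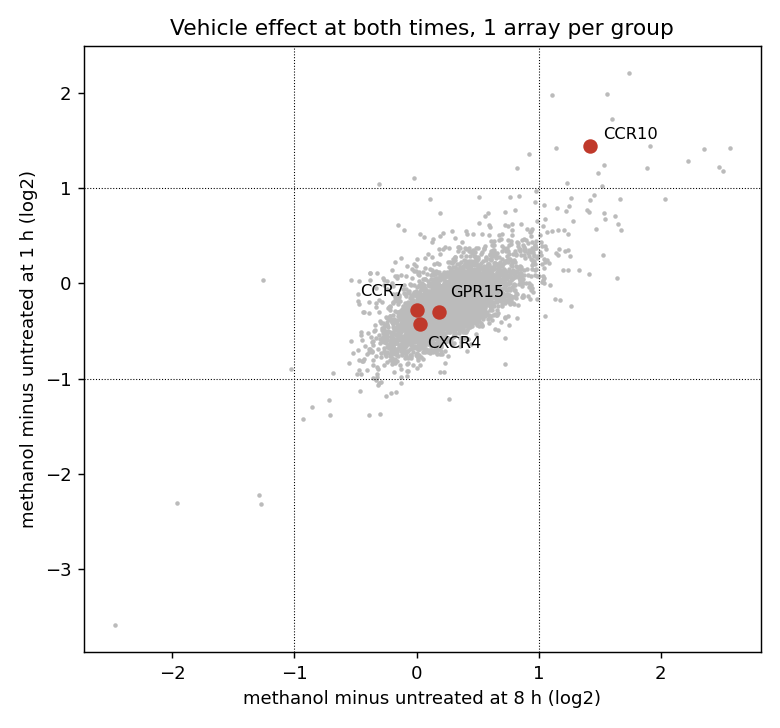
Methanol minus untreated at 8 h (horizontal) against the same at 1 h (vertical), on the log2 scale, for the 3584 tested genes, with the 4 tested receptors in red and dotted lines at 2-fold. CCR10 lies at 1.42 and 1.44, past the lines at both times, and GPR15, CCR7 and CXCR4 lie within the body of the genes.

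With time CCR10 went the other way from GPR15. Its difference between 8 h and 1 h was -0.57 with LTD4, -0.90 with methanol and -0.88 untreated. In the limma fit CCR10 fell by 0.78 (SE 0.18, 95% interval -1.14 to -0.43, adjusted p = 0.00332), lower in 3 of 3 agents. CCR7 and CXCR4 were not called, where 1.76% of tested genes were called in either direction and 0.809% lower, and 4.85% were lower in all 3 agents. Its highest array, the one that put it above the limit, was of 1 h, the high side of this contrast too, and with all 18604 genes fitted the adjusted p was 0.00305 (limma), where 1.39% of genes were called lower. The call with the limit was lost with the variance trend (adjusted p = 0.981), without either LTD4 array (adjusted p = 0.161 each) and without either methanol array (adjusted p = 0.178 each), with differences of -0.72 to -0.89.

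CCR7, the receptor for CCL19 and CCL21 that brings lymphocytes and dendritic cells to lymph nodes and is known to be abundant on Hodgkin cells, was bright on every array. It had 8298 with LTD4, 9147 with methanol and 9098 untreated at 8 h, against 8534, 7595 and 9228 at 1 h. The 2 times overlapped, and the widest pair, methanol minus untreated at 1 h, differed by -0.28. Its fitted difference between 8 h and 1 h was 0.07, with a 95% interval of -0.29 to 0.43 (limma, adjusted p = 0.951). LTD4 minus methanol was 0.01, with an interval of -0.42 to 0.45 (adjusted p = 0.9999). Methanol minus untreated was -0.14, with an interval of -0.57 to 0.30 (adjusted p = 0.915).

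CXCR4, the receptor for CXCL12, was at 2199 with LTD4, 2201 with methanol and 2153 untreated at 8 h, against 2059, 1933 and 2601 at 1 h. The untreated array of 1 h was its highest, and the 3 arrays of 8 h lay close together. Its fitted difference between 8 h and 1 h was 0.00, with a 95% interval of -0.35 to 0.36 (limma, adjusted p = 0.999), and LTD4 minus methanol was 0.04, with an interval of -0.39 to 0.48 (adjusted p = 0.9999). Methanol minus untreated was -0.20 (adjusted p = 0.868), and it was 0.03 at 8 h and -0.43 at 1 h. When each array was centred on the median of all 18604 genes in place of the deposited scaling, CXCR4 and CCR7 were called lower with methanol, at -0.48 (limma, adjusted p = 0.00643) and -0.42 (adjusted p = 0.0171), but so were 36.2% of tested genes under that centring. CXCL12 itself was at 166 to 251, CCL19 at 120 to 159 and CCL21 at 67.0 to 118.

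**Figure D4:**
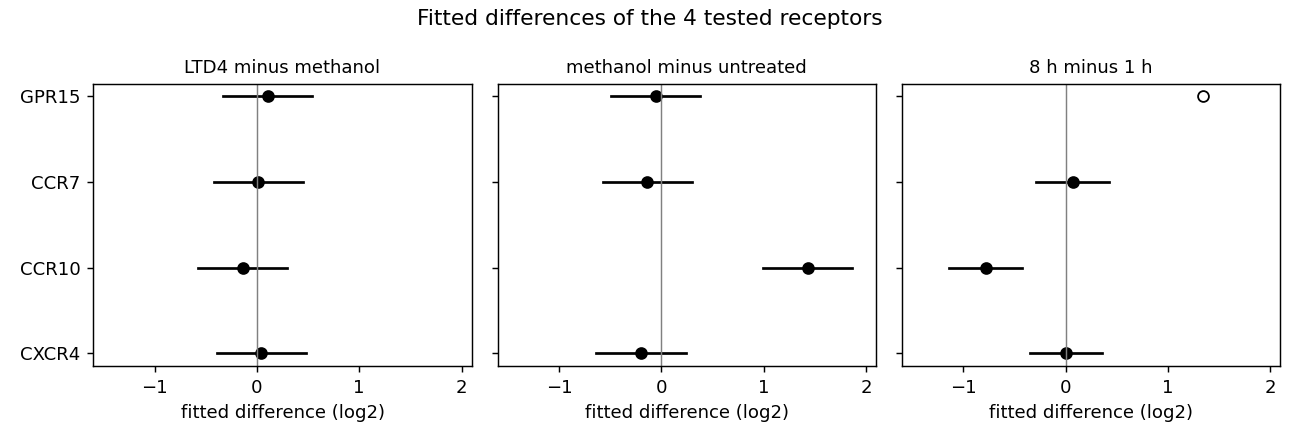
Fitted differences on the log2 scale of the 4 tested receptors from the additive limma fit, with 95% intervals as lines. The intervals of CCR10 exclude 0 for methanol minus untreated and for 8 h minus 1 h, and the other intervals include 0. CCR10 reached the background limit only on its methanol array of 1 h, the high side of both these contrasts. Both of its calls were lost with the variance trend. GPR15 for time is an open point without interval because it was chosen for that difference.

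GPR183, also called EBI2, senses oxysterols and positions B cells in the follicle. It had 724 with LTD4, 702 with methanol and 644 untreated at 8 h, against 1049, 959 and 1188 at 1 h. All 3 arrays of 8 h lay below all 3 of 1 h. The difference was -0.52 with LTD4, -0.44 with methanol and -0.87 untreated. The gene stayed below the background limit and was left out of the main test. With all 18604 genes fitted it stood at -0.61 between 8 h and 1 h (limma, adjusted p = 0.0443), lower in 3 of 3 agents, where 1.39% of genes were called lower and 24.1% were lower in all 3 agents without any call. With only those genes fitted whose mean reached the median of all probesets the adjusted p was 0.0576. In each of these fits all genes shared 1 standard error for time, 0.18, and no fit with a variance trend included GPR183. For CCR10 that trend gave a standard error for time of 0.39 in place of 0.18. UBAC2 overlaps GPR183 in the RefSeq annotation of GRCh38.p14. Of the enzymes that handle its oxysterol ligand, CH25H was at 63.5 to 87.1 and HSD3B7 at 176 to 455.

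S1PR1 and S1PR2 bind the lipid sphingosine-1-phosphate with opposite effects on migration. S1PR1 had 109 with LTD4, 86.3 with methanol and 74.7 untreated at 8 h, against 185, 55.7 and 84.9 at 1 h. The LTD4 array was the highest at each time. At 1 h it stood 1.49 above methanol and 0.998 above untreated on the log2(intensity + 16) scale. The deposited intensities themselves were 3.33 times the methanol value and 2.19 times the untreated one. With all genes fitted LTD4 minus methanol was 0.89 (limma, adjusted p = 0.139), positive at 2 of 2 times. On all 6 arrays 23 to 28 of the 45 antigenomic probesets were dimmer than S1PR1, so it lay near the middle of the background controls.

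S1PR2 had 241 with LTD4, 271 with methanol and 174 untreated at 8 h, against 262, 295 and 203 at 1 h. Methanol minus untreated was 0.59 and 0.50, and with all genes fitted 0.55 (limma, adjusted p = 0.097). Between 28 and 29 antigenomic probesets were dimmer than S1PR2, also near the background. SGPL1, the lyase that breaks down sphingosine-1-phosphate, was bright at 3298 to 3983, and its 3 fitted differences ran from -0.06 to 0.12.

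CXCR5, the receptor for CXCL13 that defines follicular B cells, was at 96.7 with LTD4, 106 with methanol and 90.3 untreated at 8 h, against 127, 118 and 94.0 at 1 h. CXCR3, the receptor for the interferon-induced chemokines CXCL9, CXCL10 and CXCL11, was at 238, 229 and 216 at 8 h, against 241, 237 and 291 at 1 h, in the same order. Both sets of values lay well below the background limit, and the 2 times overlapped in each. CXCL10 had 6478 with LTD4, 4776 with methanol and 3632 untreated at 8 h, against 1375, 1726 and 1498 at 1 h. Of 2 tested genes in the list of receptor ligands and enzymes, CXCL10 alone passed in the time fit. It rose by 1.65 (limma, adjusted p = 2.37e-16), higher in 3 of 3 agents, where 0.949% of all tested genes were called higher. The list was chosen with earlier results of these data known, so the p-value is no independent support.

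CCR6, the receptor for CCL20, was at 291 with LTD4, 298 with methanol and 263 untreated at 8 h, against 336, 333 and 323 at 1 h. All 3 arrays of 8 h lay below all 3 of 1 h, with differences of -0.20 with LTD4, -0.15 with methanol and -0.28 untreated. Of all 18604 genes 24.1% were lower at 8 h in all 3 agents, and their median untreated difference was -0.21, so this order was common. With all genes fitted the difference was -0.21 (limma, adjusted p = 0.631). The row used spans only 133 bases, and another row annotated to CCR6 alone, which spans 16928 bases, stood at 114 to 142. One more such row stood at 61.2 to 156, and a row naming CCR6 together with FGFR1OP was not used. CCL20 was at 45.5 to 61.7.

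For LTD4 minus methanol, 0 of 4 tested receptors passed the limma fit in either direction, with 0 at an unadjusted p below 0.05, where 0.0% of the 3584 genes passed and 13 of them had an unadjusted p below 0.05. Counting a receptor when LTD4 lay at least 2-fold outside both other arrays of its time, 0 of 4 were past at 8 h, where 0.0% of tested genes were, and 0 of 4 at 1 h, where 0.0837% were. Over the 10 receptors LTD4 minus methanol had a median of -0.02 at 8 h and 0.09 at 1 h, beside -0.08 and 0.01 over all 18604 genes. Among the 6 dim receptors the rule depended on the offset: with 16 added before the logarithm 0 of 6 were past, where 0.0161% of all genes were at 8 h and 0.0699% at 1 h, while with 1 added S1PR1 was past at 1 h, where 0.129% of all genes were. With all genes fitted 0 of 10 receptors and 0.0161% of genes passed.

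Related genes were taken from lists. Of 30 other chemoattractant receptors on the array, 1 reached the limit, CCR4, the receptor for CCL17 and CCL22. CCR4 had 3274 with LTD4, 3347 with methanol and 4213 untreated at 8 h, against 2949, 2555 and 4327 at 1 h. Methanol minus untreated was -0.54 in the limma fit (adjusted p = 0.254). Of 21 ligands and enzymes 2 reached the limit, CXCL10 and SGPL1.

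Of 21 signal transducers and desensitisers 11 reached the limit and 0 passed in any of the 3 fits. RGS13, a regulator that shortens G protein signals in germinal centre B cells, had 2731 with LTD4, 2362 with methanol and 1173 untreated at 8 h, against 2166, 1972 and 1867 at 1 h, and its methanol difference of 0.54 was the list's greatest. The G protein subunit GNG2 followed at 0.39, DOCK2, an activator of RAC in migrating lymphocytes, at -0.34 and the subunit GNB1 at -0.27. Of 16 transcription factors known to act on receptor genes 5 reached the limit and 0 passed. Among them KLF2, an activator of S1PR1, was at -0.21 for 8 h minus 1 h and GATA3 at 0.12 for LTD4 minus methanol. YY1 was at 0.20 for methanol minus untreated and NFKB2 at 0.20 for 8 h minus 1 h. AHR, a known activator of GPR15 in T cells, stayed below the limit at 784 to 1232. In the time fit the medians of these lists were 0.07 for the transducers and -0.07 for the transcription factors, beside 0.10 over all tested genes.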

How the data were processed

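RNA of L1236 cells was measured on 6 Affymetrix arrays, 1 per group. The deposited intensities are linear gene-level values. Per the submitters' processing notes, RMA and Affymetrix Expression Console were used, while the deposited table's own name carries PLIER. Neither labels nor headers name versions, the scaling between arrays or the genome build. The other deposited table held identical intensities in all 199782 values.

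Probesets naming 1 symbol (19479) were kept, symbols were updated through Entrez identifiers to GRCh38.p14 (19079 matched), and the brightest row per symbol was taken. Values were analysed as log2(intensity + 16). The background limit was the 95th percentile of antigenomic probesets on that scale, 10.32. The additive model of agent and time was fitted with limma 3.58.1 in R 4.3.3, with 2 residual degrees of freedom among 6 arrays, and Benjamini-Hochberg adjustment at 0.05 over all genes tested. Limma estimated an infinite prior, so all genes shared 1 standard error, 0.18 for time and 0.22 for agents. Arrays were simulated without array-wide shifts and with equal noise of SD 0.18 in every gene (3584 genes, time comparison). There it recovered 67.2% of changes of 0.5 and 100% of changes of 1 log2 unit, and called 12 unchanged genes. The simulated SD of 0.18 matched the standard error for time. In this design the SD of a single array equals the standard error for agents, 0.22, so the simulation was quieter than the data. Its recovery shares are thus too high for the real data. With the variance trend the standard error of CCR10 for agents was 0.48, so recovery may be lower still, above all for dim genes. Pairs of single arrays were compared without a test.

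The receptors and gene lists were chosen with earlier results of these data known. The rule for named genes took all 10 receptors, up to 4 tested genes of each list with the greatest difference plus any past the threshold, and the 5 genes most correlated with GPR15. Dim ligands, AHR, UBAC2, CH25H and HSD3B7 were named after their values were seen. CXCR4 was left out of the transducer list. Alternatives covered the other table, offsets of 1 and 64, the limit, scaling, a variance trend and leaving out each array.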

Additional observations from a re-analysis of the deposited data

Results flagged for a closer look

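For the 4 tested receptors, the effect of methanol against untreated and that of LTD4 against methanol were compared between 8 h and 1 h. Of 8 pairs 7 had opposite signs at the times. The share of all tested genes with opposite signs was not counted, and their medians changed sign in both comparisons too. The count therefore cannot be read as a trait of the receptors. Some pairs rest on a value near 0 at 8 h. These were 0.0076 for CCR7 (methanol minus untreated), and -0.0012 for CXCR4 and 0.028 for CCR10 (LTD4 minus methanol). With 1 array per group this difference was not tested. For methanol minus untreated, the effect at 8 h minus that at 1 h was 0.48 for GPR15, 0.29 for CCR7 and 0.46 for CXCR4. The median of all tested genes had the same signs, 0.27 at 8 h and -0.21 at 1 h. For LTD4 minus methanol it was -0.48 for GPR15, -0.31 for CCR7, -0.0916 for CXCR4 and 0.34 for CCR10, while the median of all tested genes was -0.10 at 8 h and 0.11 at 1 h. CCR10 thus ran against that median.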

How the results depend on the processing

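No paired analysis was possible because each group was 1 array and shared fewer than 2 replicate numbers. Of the counts of receptors under alternatives, 78 were the same and 11 moved. For time, the count besides GPR15 was 1 (CCR10), became 2 without the background limit, where GPR183 was added, and 0 with a variance trend, and ranged from 0 to 1 when each array was left out. For methanol the count was 1 and became 0 with the variance trend. It became 3 when arrays were centred on the median of all genes, a setting added after the data were seen. The fits without 1 array kept the genes chosen on all 6 arrays. CCR10 thus stayed in them even without the methanol array of 1 h that admitted it, so their counts cannot show robustness to that array. Its methanol difference in them was 1.34 to 1.52. The 2-fold count for methanol at 8 h was 1 and became 0 after quantile normalization and after centring on the median of all genes. The LTD4 counts were 0 under every alternative run except the 2-fold count at 1 h, which became 1 (S1PR1) with no background limit and an offset of 1 together, also added after the data were seen. GPR15 was higher at 8 h under all of them, by 1.18 to 1.42. It was chosen for that difference on these same arrays, so this range is a description and no support. A left-out array leaves 1 residual degree of freedom, and its lone partner is assumed to vary like the others. Signal over background limits the 6 dim receptors.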
